A study of Mus musculus with 8 samples.

Results

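The genes described here encode 3β-hydroxysteroid dehydrogenases and other enzymes that modify steroids in the liver. They are Hsd3b1, Hsd3b2, Hsd3b3, Hsd3b5 and Hsd3b6, the 5α-reductase gene Srd5a1, the 11β-hydroxysteroid dehydrogenase gene Hsd11b1 and the 17β-hydroxysteroid dehydrogenase gene Hsd17b2. All array features (spots) annotated to these 8 of 20738 genes were taken, 19 of 31465 features with a gene symbol. The set was chosen by the difference of Hsd3b5 between the diets, so the values of Hsd3b5 are a description without a test, and the other 7 genes were read from a fit across all genes.

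Liver RNA came from male mice of CD-1, an outbred stock, that had eaten a diet with 0 ppm (control) or 2500 ppm of NaPB for 7 days. NaPB is sodium phenobarbital, which switches on liver genes through the nuclear receptor CAR. Each diet had 4 arrays, Agilent's one-colour type, and the labels give neither an age nor whether the arrays hold separate animals, so the p-values speak of the spread between arrays, which may be technical. Besides the diet, the labels name no genotype, treatment or batch that separates the groups.

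The 3β-hydroxysteroid dehydrogenases oxidise the 3β-hydroxyl group of steroids and move the neighbouring double bond, a step on the way to progesterone and the androgens. Mice have many copies of the gene, and some of the encoded enzymes work mainly as 3-ketosteroid reductases that inactivate steroids. Hsd3b5 belongs to the latter kind and is known as a gene expressed far more in the livers of adult male mice than of females.

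The genes for the family lie side by side on mouse chromosome 3, and the stretches before their start sites are shown for Hsd3b5, whose values chose the set, and for Hsd3b3 and Hsd3b2, relatives in the same cluster. RefSeq's promoter table for GRCm38.p6 gave a window for 7 of the 8 genes. Each sequence below is the 250 bases before a RefSeq start site on the minus strand, at chr3:98645535-98645784 for Hsd3b5, chr3:98763129-98763378 for the first of the windows of Hsd3b3 and chr3:98724544-98724793 for Hsd3b2. Capitals mark runs of at least 10 bases that the Hsd3b5 and Hsd3b3 windows share.
Hsd3b5: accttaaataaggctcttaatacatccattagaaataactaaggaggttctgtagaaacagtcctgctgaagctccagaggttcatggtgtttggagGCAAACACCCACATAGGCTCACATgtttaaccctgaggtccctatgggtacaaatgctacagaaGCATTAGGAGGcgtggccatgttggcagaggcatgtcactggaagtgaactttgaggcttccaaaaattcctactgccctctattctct
Hsd3b3: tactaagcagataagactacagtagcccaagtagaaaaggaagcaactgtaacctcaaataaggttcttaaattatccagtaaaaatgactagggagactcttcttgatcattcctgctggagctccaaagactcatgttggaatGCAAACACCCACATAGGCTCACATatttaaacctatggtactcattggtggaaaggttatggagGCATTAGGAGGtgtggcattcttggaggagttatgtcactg
Hsd3b2: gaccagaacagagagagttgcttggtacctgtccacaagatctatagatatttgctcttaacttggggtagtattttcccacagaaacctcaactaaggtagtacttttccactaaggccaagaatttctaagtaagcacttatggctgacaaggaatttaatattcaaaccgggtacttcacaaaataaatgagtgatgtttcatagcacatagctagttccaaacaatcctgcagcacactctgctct

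The longer capital run, of 24 bases, begins 153 bases before the start site of Hsd3b5 and 105 bases before that of Hsd3b3. Among 32851 windows of that length it was found in those of Hsd3b5 and Hsd3b3 alone. The shorter run, of 11 bases, also occurs before Mybphl. Once aligned, the Hsd3b5 and Hsd3b3 windows were identical at 75.9% of aligned positions, against 54.5% to 67.6% for 24 other pairs of windows from 6 Hsd3b genes. The longest run that Hsd3b5 shares with the Hsd3b2 window was 8 bases.

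A search of both strands for 4 motifs found few matches in these windows. TTCNNNGAA, the consensus of the growth hormone-activated factor STAT5, was in the Hsd3b1 window, 122 to 114 bases before its start, and in no window of the other members; 7.02% of all windows hold it. AGTTCA, a nuclear receptor half-site found in response elements of CAR and PXR, was 44 to 39 bases before the start of Hsd3b5 and 206 to 201 before that of Hsd3b1, and 11.8% of all windows hold it. AGGTCA, another nuclear receptor half-site, and TATAAA, the TATA box, matched in no window of the members and in 14% and 12.4% of all windows. None of these matches overlaps a capital run. A match describes letters in a window and shows no binding.

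Hsd3b5 was abundant on every control array and low on every NaPB array. Its intensity was 22.6, 16.0, 16.9 and 16.9 on control replicates 1 to 4 and 0.112, 0.88, 0.866 and 0.0316 on NaPB replicates 1 to 4. The lowest control value was therefore far above the highest NaPB value, and the control arrays lay close together (SD 0.23 on the log2 scale, n = 4) while the NaPB arrays were spread widely (SD 2.36, n = 4). NaPB replicate 4 was at the floor of its array, taken here as a value up to 2 times the lowest on that array, so its true level may lie anywhere below. The geometric means were 17.9 and 0.228, a log2 fold change of −6.30 ± 0.91 (SE), or 78.7-fold lower, and these are the values that selected the gene. The log2 fold change was −5.35 without NaPB replicate 4 and −6.95 and −6.94 without NaPB replicates 2 and 3. Lower RNA in bulk liver may mean fewer cells that hold the transcript or less of it per cell, which cannot be told apart here.

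**Figure D1:**
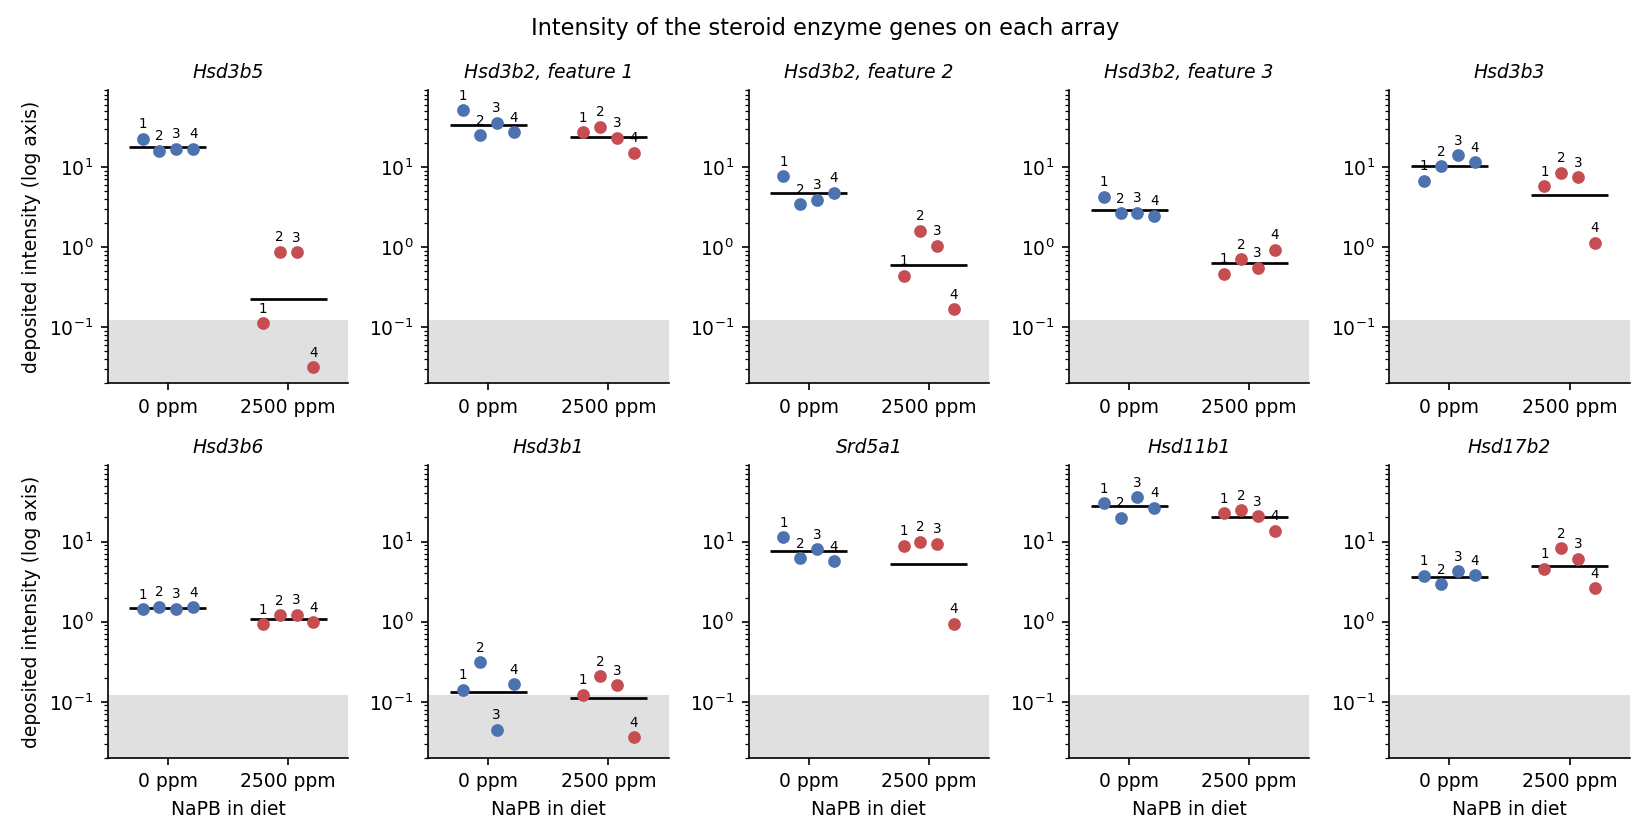
Deposited intensity (log axis, scaled by the authors) of each gene on the 4 control arrays (blue, 0 ppm) and 4 NaPB arrays (red, 2500 ppm), with replicate numbers beside the points and black bars at the geometric means; all 3 features of Hsd3b2 and the brightest feature of Hsd11b1 are shown. The grey band reaches up to the highest of the arrays' floor limits (0.119); Hsd3b5 stands at 16.0 or more on control arrays and at 0.88 or less on NaPB arrays, and NaPB replicate 4 is the lowest NaPB point in most panels.

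Hsd3b2, the next named gene in the cluster, had 3 features whose values differed in how far they moved with the diet. Feature 1, the brightest, carries a GenBank mRNA accession (AY053455), and its values were 50.7, 24.9, 35.7 and 27.0 on the control arrays and 27.2, 31.8, 23.3 and 15.0 on the NaPB arrays. Those ranges overlap, and the log2 fold change of −0.50 ± 0.33 (95% interval −1.24 to 0.24) did not pass (limma, adjusted p = 0.723 over all genes). Features 2 and 3 carry the gene's RefSeq transcript (NM_153193). Feature 2 gave 7.73, 3.44, 3.89 and 4.80 on the control arrays and 0.439, 1.61, 1.04 and 0.167 on the NaPB arrays. Its groups did not overlap, and its log2 fold change of −3.0 ± 0.61 just missed the threshold among all features tested singly (limma, adjusted p = 0.0539).

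Feature 3 of Hsd3b2 fell. It gave 4.25, 2.65, 2.70 and 2.46 on the control arrays and 0.465, 0.712, 0.551 and 0.933 on the NaPB arrays. All 4 NaPB values lay below all 4 control values, and NaPB replicate 4 was here the highest of its group rather than the lowest. The log2 fold change was −2.20 ± 0.31 (limma on every feature singly, adjusted p = 0.0101). The adjusted p was 0.00113 to 0.0445 over 17 alternatives. Of the 18 features of the genes other than Hsd3b5, this 1 was called lower, where 0.512% of all 31465 features were.

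The discord of feature 1 of Hsd3b2 with features 2 and 3 was larger than the spread between arrays, and that between features 2 and 3 was not. The log2 ratio of feature 1 over feature 3 was 3.5 ± 0.21 (SD, n = 4) on control and 5.19 ± 0.81 on NaPB arrays (exact permutation test, two-sided, p = 0.0286; 0.0429 after Benjamini-Hochberg adjustment over 3 comparisons). For feature 1 over feature 2 it was 2.81 ± 0.30 and 5.31 ± 1.08 (exact permutation test, n = 4 per diet, p = 0.0286, adjusted 0.0429). For feature 2 over feature 3, annotated to the same transcript, it was 0.68 ± 0.28 and −0.12 ± 1.67 (n = 4 each, exact permutation p = 0.486). With 4 arrays against 4 the smallest p this test can give is 0.0286, and the test was added with the values known. The sequences of the array probes were not used here, so which of the near-identical Hsd3b transcripts each feature binds was not tested.

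Taken as the mean of its 3 features, Hsd3b2 fell by 1.90 on the log2 scale and passed over all genes (limma, adjusted p = 0.0343). Which feature stands for the gene thus decides whether Hsd3b2 is called.

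Hsd3b3, the next gene in the cluster and the one whose upstream window is most like that of Hsd3b5, encodes another member expressed in liver and kidney. Its intensity was 6.71, 10.3, 14.0 and 11.4 on the control arrays and 5.77, 8.5, 7.49 and 1.13 on the NaPB arrays. NaPB replicate 4 was far below the others, whose values overlap the lowest control value. The log2 fold change of −1.18 ± 0.58 did not pass (limma, adjusted p = 0.555), and it was −0.52 without NaPB replicate 4.

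Hsd3b6, known as the isoform of the adrenal zona glomerulosa, was at 1.43, 1.54, 1.45 and 1.52 on the control arrays. On the NaPB arrays it was at 0.929, 1.21, 1.22 and 0.977. All NaPB values were lower than all control values, though by a small margin. It differed by −0.46 ± 0.24 log2 units (95% interval −1.0 to 0.07) and did not pass (limma, adjusted p = 0.592). Of all genes, 4.31% had NaPB values below the control values without overlap. Of the 7 genes here other than Hsd3b5, whose values chose the set, Hsd3b6 alone did by its brightest feature.

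Hsd3b1, the isoform of the gonads and the adrenal gland, was dim. Its values were 0.142, 0.311, 0.0448 and 0.165 on the control arrays and 0.122, 0.210, 0.160 and 0.0363 on the NaPB arrays, with 1 array of each diet at the floor. The groups overlap throughout, and the log2 fold change of −0.28 ± 0.64 did not pass (limma, adjusted p = 0.931). With 1 array left out at a time the lowest value was −0.81, when control replicate 3 was dropped, and the highest 0.26, when NaPB replicate 4 was.

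**Figure D2:**
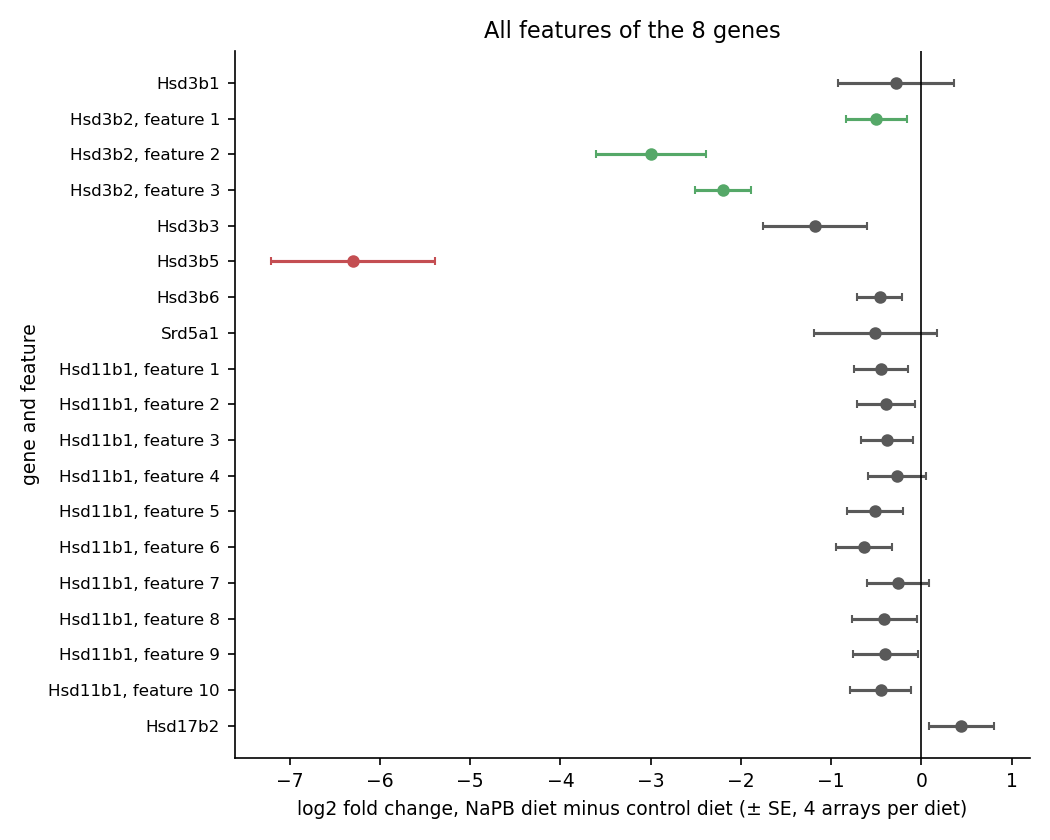
Log2 fold change (NaPB minus control diet, points) with limma's standard error (bars) of the 19 features of the 8 genes, each feature fitted singly with 4 arrays per diet. Hsd3b5 (red) stands at −6.30, the 3 features of Hsd3b2 (green) at −0.50, −3.0 and −2.20, and the 10 features of Hsd11b1 lie together between −0.64 and −0.26.

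Srd5a1 encodes the 5α-reductase that converts testosterone to dihydrotestosterone and reduces other 3-keto-4-ene steroids in liver. Its values were 11.4, 6.15, 8.02 and 5.70 on the control arrays and 8.85, 9.95, 9.35 and 0.943 on the NaPB arrays. NaPB replicates 1 to 3 lay within the control range and NaPB replicate 4 lay far below it. The log2 fold change was −0.51 ± 0.68 with all arrays (limma, adjusted p = 0.869) and 0.32 without NaPB replicate 4 (adjusted p = 0.714), so its sign rests on 1 array.

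Hsd11b1 encodes the enzyme that regenerates active glucocorticoid from its 11-keto form in hepatocytes. Its brightest feature gave 29.9, 19.8, 35.7 and 26.6 on the control arrays and 22.6, 24.8, 20.8 and 13.7 on the NaPB arrays. The groups overlap, with NaPB replicate 4 the lowest of the 8. The difference was −0.45 ± 0.30 log2 units (limma, adjusted p = 0.718). All 10 features of the gene carry the same transcript (NM_008288), gave log2 fold changes from −0.64 to −0.26 (median −0.41) and overlapped between the diets. The smallest adjusted p among them was 0.551. Over these features, control values ran from 15.7 to 35.7, NaPB replicates 1 to 3 from 16.4 to 24.8 and NaPB replicate 4 from 8.72 to 13.7.

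Hsd17b2, which encodes the enzyme that oxidises estradiol and testosterone to estrone and androstenedione, was the member with a log2 fold change above 0. It was at 3.73, 2.95, 4.26 and 3.78 on control and at 4.58, 8.21, 6.09 and 2.60 on the NaPB arrays. NaPB replicates 1 to 3 were above every control array and NaPB replicate 4 was below them all. The log2 fold change of 0.44 ± 0.36 did not pass (limma, adjusted p = 0.775), nor did the 0.75 without NaPB replicate 4 (adjusted p = 0.271).

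Of the 7 genes other than Hsd3b5, all but Hsd17b2 had a log2 fold change below 0, where 48.8% of all genes did. The median of the 8, which include the gene that chose the set, was −0.48, against 0.01 over all genes. Without NaPB replicate 4, Hsd3b1 (0.26), Srd5a1 (0.32) and Hsd17b2 (0.75) lay above 0. None of the 7 genes other than Hsd3b5 passed by its brightest feature (limma, adjusted p under 0.05 over all genes), and none had an unadjusted p under 0.05, which 10.1% of all genes had. By feature 3 or by the mean of its features Hsd3b2 passed, as given above. Over all genes, 0.617% were called lower and 0.391% higher.

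The spread within the NaPB group followed a pattern shared by most of these genes. NaPB replicate 4 was the lowest NaPB array for 7 of the 8 genes (87.5%), the exception being Hsd3b6, whose lowest was NaPB replicate 1. The same array was the lowest for 43.7% of all genes and for 78.7% of the brightest 25% of genes. By brightest features the order of the NaPB arrays from low to high was 4, 1, 3, 2 for Hsd3b5. Hsd3b1, Hsd3b3, Srd5a1 and Hsd17b2 had the same order, as did 6.96% of all genes. That share was not counted among bright genes alone, where NaPB replicate 4 was more often the lowest. Feature 2 of Hsd3b2 and features 2 and 8 of Hsd11b1 also had it, and the other features of these genes did not. In array weights estimated by limma, control replicate 1 (0.308) and NaPB replicate 4 (0.313) counted least, against 1.14 to 1.98 for the others. NaPB replicate 4 differed from the mean of NaPB replicates 1 to 3 by a median of −1.69 log2 units over all 8 genes and −1.23 without Hsd3b5, against −0.69 over the brightest 25% of genes and −0.20 over all genes. Values without this array stand beside some of the results that it moved. Without it the log2 fold change was also −0.29 for feature 1 of Hsd3b2 and −0.27 for the brightest feature of Hsd11b1.

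The diet itself was checked by Cyp2b10, the classic CAR target gene of mouse liver, which gave 0.863 to 5.22 under the control diet and, in order of replicate, 521, 491, 430 and 77.7 under NaPB. It rose 114-fold (log2 6.84 ± 0.69, limma adjusted p = 0.00180), and NaPB replicate 4 was again the lowest of its group. On that array Cyp2b10 was thus raised least, while Hsd3b5 was lowest.

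None of the measured neighbours of the Hsd3b genes on chromosome 3 was called. In the order of the assembly, used here for order alone, the measured genes are Reg4, Phgdh, Zfp697, Hsd3b4, Hsd3b5, Hsd3b2, Hsd3b3, Hsd3b6, Hsd3b1, Hao2 and Wars2. Hsd3b4, the nearest measured neighbour on the other side of Hsd3b5, was at 0.223, 0.427, 0.307 and 0.342 on the control arrays and 0.167, 0.416, 0.505 and 0.409 on the NaPB arrays. Its groups overlap (log2 fold change 0.13 ± 0.38, limma adjusted p = 0.944). Hao2, which encodes a hydroxyacid oxidase, differed by 1.52 ± 0.67 log2 units by its brightest feature (limma, adjusted p = 0.478). That feature was at the floor on 3 control arrays. The 10 features of Hao2 gave log2 fold changes from 1.04 to 1.93, and none passed (limma on every feature singly, smallest adjusted p = 0.112). By their brightest features Reg4, Phgdh, Zfp697 and Wars2 lay between −0.30 and −0.04; a second feature of Phgdh gave −1.77 (adjusted p = 0.312 among features).

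**Figure D3:**
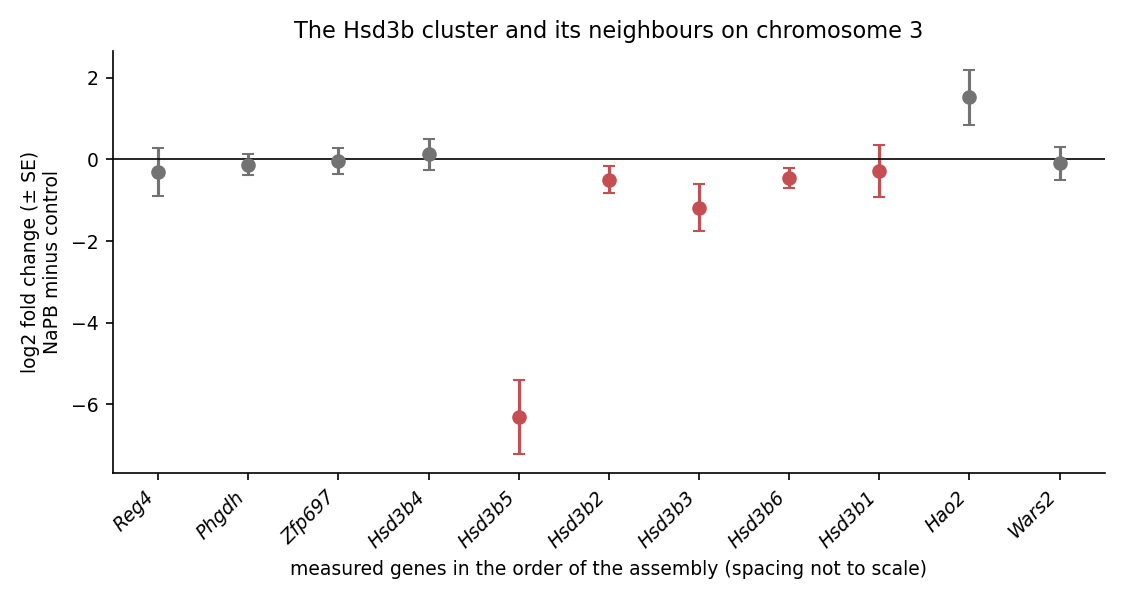
Log2 fold change (NaPB minus control diet, points) with limma's standard error (bars) of the measured genes around the Hsd3b cluster, in assembly order with equal spacing that is not to scale; each gene is shown by its brightest feature, the family members of the set in red. Hsd3b5 stands at −6.30 between Hsd3b4 (0.13) and Hsd3b2 (−0.50).

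Of the other genes with 3β-hydroxysteroid dehydrogenase activity, 3 were measured and none was called (median log2 −0.02). Hsd3b7, which acts in bile acid synthesis, was at 93.1, 49.6, 82.9 and 65.6 on control and at 44.8, 37.3, 45.6 and 12.6 on the NaPB arrays. All of the latter lay below all of the former, yet the log2 fold change of −1.18 ± 0.43 did not pass (limma, adjusted p = 0.342). It was −0.74 without NaPB replicate 4.

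Among 3 other reductases of the steroid A ring none was called. Srd5a2, the second 5α-reductase gene, was dim, at 0.439, 0.256, 0.362 and 0.307 on the control arrays and 0.0936, 0.133, 0.253 and 0.130 on the NaPB arrays. Its groups did not overlap, and its log2 fold change of −1.23 ± 0.34 did not pass (limma, adjusted p = 0.163). Akr1d1, the 5β-reductase gene, picked after its values were seen, differed by 1.05 ± 0.50 log2 units (adjusted p = 0.538) and passed without NaPB replicate 4.

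Of 22 measured genes for 17β- and 3α-hydroxysteroid oxidoreductases and related enzymes, 1 fell, none rose, and 16 lay below 0 (median log2 −0.32, against 0.01 over all genes). That lean was not kept without NaPB replicate 4, where 11 of the 22 lay below 0 (median −0.08, against 0.05 over all genes). The list also holds Hsd11b2, an 11β-dehydrogenase gene, and H6pd, whose enzyme supplies the cofactor of Hsd11b1; without them 14 of 20 lay below 0 (median −0.32). The gene that fell was Hsd17b6, which encodes an enzyme that converts 5α-androstanediol back toward dihydrotestosterone. It was at 2.66, 1.59, 1.60 and 2.54 on the control arrays and 0.901, 0.665, 0.816 and 0.547 on the NaPB arrays, with no overlap (log2 −1.50 ± 0.30, limma adjusted p = 0.0452). The call was lost under 12 of 19 alternatives, including each fit with 1 array left out (adjusted p 0.0581 to 0.143). Without NaPB replicate 4 none of the list fell and 2 rose, Akr1c14 and Akr1c19, both aldo-keto reductase genes.

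Of 7 measured genes of steroid synthesis, Star fell and none rose. Star encodes the protein that brings cholesterol to the inner mitochondrial membrane in steroid-making cells. It was at 2.56, 1.18, 1.64 and 1.58 on the control arrays and 0.304, 0.468, 0.583 and 0.230 on the NaPB arrays, which do not overlap (log2 −2.17 ± 0.36, limma adjusted p = 0.0223). Another feature of Star gave −0.62 (adjusted p = 0.780 among features), the mean of both did not pass (adjusted p = 0.0882), and the call was lost without control replicate 3, control replicate 4 or NaPB replicate 1 (adjusted p 0.0694, 0.0648 and 0.0866). Cyp11a1, the side-chain cleavage gene that defines steroid-making cells, was at the floor on 1 control and 3 NaPB arrays.

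Of 6 hydroxylase genes 3 rose and none fell, the P450 genes Cyp2b10, Cyp2b9 (24.8-fold, log2 4.63 ± 0.65, limma adjusted p = 0.00849) and Cyp2a4 (16.7-fold, 4.06 ± 0.62, adjusted p = 0.0133, lost without NaPB replicate 1 at 0.0508). Cyp2a4 is the testosterone 15α-hydroxylase of mouse liver. Without NaPB replicate 4 a further gene of the list, Cyp3a11, was called higher. Cyp7b1, an oxysterol hydroxylase gene picked after its values were seen, was at 17.3 to 26.1 on control and 2.47 to 12.5 on NaPB arrays (log2 −1.74 ± 0.46, adjusted p = 0.142).

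Of 11 conjugation genes 4 rose, all sulfotransferases, and none fell. Sult1e1, the estrogen sulfotransferase gene, had only floor values under the control diet and reached 2.80, 1.73, 4.08 and 2.61 on the NaPB arrays, at least 31.7-fold higher against the floor (limma, adjusted p = 0.000108). Sult2a1 and Sult2a2, hydroxysteroid sulfotransferase genes, likewise had only floor values under the control diet and were at least 36.9-fold and 15.4-fold higher (adjusted p = 0.00631 and 0.00754). Sult3a1, with 2 control arrays at the floor, rose by 4.08 ± 0.65 log2 units (adjusted p = 0.0171), and its call was lost without control replicate 1, control replicate 3 or NaPB replicate 3 (adjusted p 0.0513, 0.0572 and 0.0530). Sult2a8, picked after its values were seen, was at 44.2 to 86.1 on control and 3.01 to 22.0 on NaPB arrays (log2 −2.36 ± 0.55, adjusted p = 0.0894). It was called lower under 5 of 18 alternatives (adjusted p 0.0216 to 0.0496), 1 of them the fit without NaPB replicate 4.

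Among 9 steroid receptor and carrier genes none was called, and the median log2 fold change was 0.03. Serpina6, which encodes the corticosteroid-binding globulin of plasma, was at 8.35 to 16.6 on control and 22.8 to 107 on NaPB arrays (log2 2.19 ± 0.47, limma adjusted p = 0.0616). It passed under 7 of 18 alternatives (adjusted p 0.00377 to 0.0463), among them array weights and the fit without NaPB replicate 4 (0.00512). Over these 7 lists 61 of 70 genes were measured, of which 7 rose and 2 fell, where 0.391% of all genes were called higher and 0.617% lower. Without NaPB replicate 4 it was 12 and 2, but the shares of all genes also went up, to 1.02% and 0.743%. The lists were drawn up with earlier results of these data known, so their counts are no independent evidence.

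**Figure D4:**
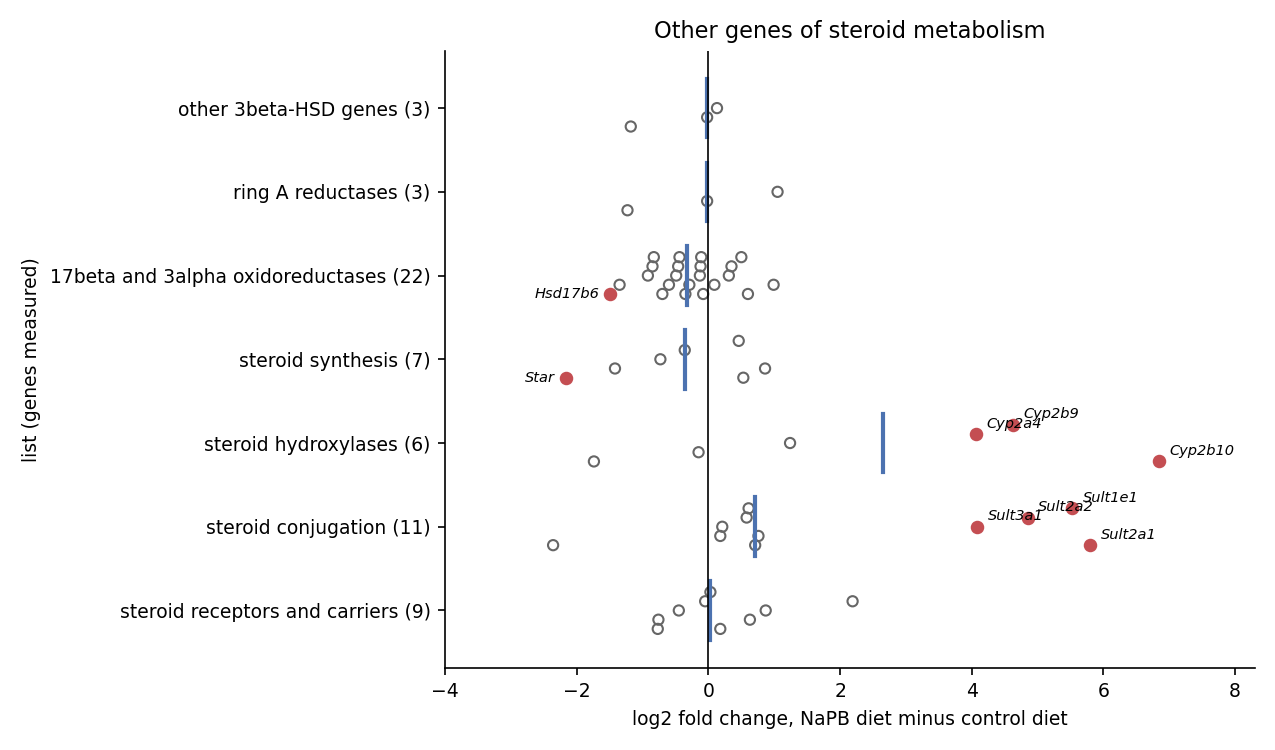
Log2 fold change (NaPB minus control diet) of each measured gene of the 7 lists of steroid metabolism, with the number measured in brackets; filled red points passed (limma, adjusted p under 0.05), open points did not, and blue bars mark each list's median. The 7 genes that rose are 3 P450 and 4 sulfotransferase genes; Hsd17b6 and Star fell.

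Hsd3b5 is a male-typical gene of the liver, and of 13 other measured male-biased genes 12 lay below 0 and 1 fell (median log2 −0.57), where 48.8% of all genes lay below 0. Some marker lists of other kinds also leaned below 0. Medians were −0.50 for 9 Kupffer cell, −0.52 for 7 stellate cell and −0.37 for 9 hepatocyte markers. Adrenal cortex and Leydig cell markers stood at −0.73, endothelial at −0.09, bile duct at 0.13, lymphocyte and neutrophil at 0.36 and kidney tubule at 0.4. Without NaPB replicate 4, 11 of the 13 male-biased genes lay below 0 (median −0.68). The Kupffer cell, stellate cell and hepatocyte medians were then −0.41, −0.32 and −0.23. Of all genes 0.617% were called lower. The gene that fell was Susd4, a gene for a complement regulator of the cell membrane, at 11, 5.51, 9.30 and 3.59 on the control arrays and 0.532, 1.1, 1.57 and 0.644 on the NaPB arrays. The groups did not overlap (log2 −2.93 ± 0.45, limma adjusted p = 0.0128). Of 11 genes for regulators of sex bias, which include the growth hormone receptor, STAT5 and its targets, none was called and 9 lay below 0 (median −0.52). Ghr, the growth hormone receptor gene, had the smallest p of these (log2 −1.0 ± 0.37, adjusted p = 0.348). Averaged over these 13 genes, the deviation from control was −1.18, −0.37, −0.54 and −1.82 log2 units for NaPB replicates 1 to 4.

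The array profile nearest to that of Hsd3b5, measured as the root mean square difference of centred log2 values over the 8 arrays, belonged to Serpina4-ps1, a serpin pseudogene, at 1.68. It was at 153, 34.4, 54.1 and 61.9 on the control arrays and 0.323, 1.46, 1.76 and 2.49 on the NaPB arrays. On both genes NaPB replicate 1 was far lower than replicates 2 and 3, but NaPB replicate 4 was the highest NaPB array for the pseudogene and the lowest for Hsd3b5. Next came Sp7 (1.79), Ssty1 (1.96), Cbfa2t3 (2.01), Susd4 (2.04) and Cdk15 (2.13), against a median of 3.49 over all genes. Sp7 was at the floor on 3 NaPB arrays, and the other features of Ssty1 and Cbfa2t3 gave log2 fold changes of 0.11 and −0.66, and of 0.17 and 0.64. Each gene entered by its brightest feature, and by that feature no member was nearer than these, Hsd3b3 standing at 2.71 and Hsd17b2 at 3.53. Features 2 and 3 of Hsd3b2 were not ranked, so the ranking does not speak of them. Feature 2 had the array order of Hsd3b5. Its deviations from its control mean were −3.43, −1.56, −2.18 and −4.82 log2 units on NaPB replicates 1 to 4. The 6 genes with the nearest profiles were found by their likeness to Hsd3b5, so no difference between the diets is tested here from that likeness. Susd4 was also in the male-biased list and is tested there as a gene of that list.

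**Figure D5:**
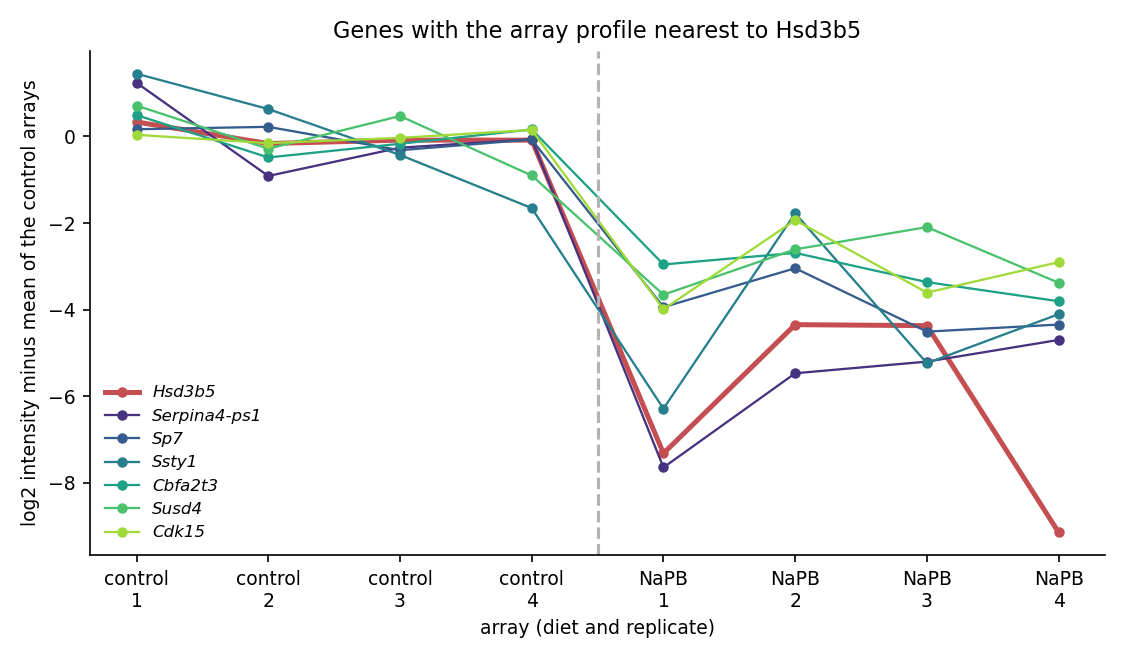
Log2 intensity minus the mean of the 4 control arrays (vertical axis) for Hsd3b5 (thick red line) and the 6 genes with the nearest profiles on each of the 8 arrays (horizontal axis); lines only join the points of a gene, since replicates have no order. All 7 genes lie below their control mean on every NaPB array, and Hsd3b5 is the lowest of them on NaPB replicate 4 (−9.15).

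Markers of cell types were read beside these results. The summed intensity of 9 hepatocyte markers was 4330 to 7070 on control and 3430 to 5090 on NaPB arrays, and none of them was called; Apoa1 had the smallest p (log2 −1.0 ± 0.28, limma adjusted p = 0.167). That of 9 Kupffer cell markers was 21 to 23 and 14.9 to 16.8 without overlap; 8 lay below 0, none was called, Timd4 was at the floor on all arrays and C1qa had the smallest p (log2 −1.05 ± 0.24, adjusted p = 0.0820). Of 6 lymphocyte and neutrophil markers S100a8 alone rose (log2 6.43 ± 1.04, adjusted p = 0.0176). Its call was lost with a robust variance trend and without control replicate 1, 2 or 3 or NaPB replicate 1 or 3 (adjusted p 0.0506 to 0.0654). The sums of the list were 18.2 to 31.5 and 28.3 to 153. None was called among 7 endothelial markers (sums 95 to 194 and 119 to 195), 7 stellate cell markers (37.4 to 60.3 and 24.8 to 46.0), 6 bile duct markers (1.95 to 5.20 and 3.56 to 4.87) or 5 kidney tubule markers (2.11 to 2.64 and 2.68 to 3.44). Lyve1, Reln, Epcam and Slc34a1 had the smallest p of these lists (log2 1.01, −0.93, 0.40 and 0.89). Of 7 markers of adrenal cortex and Leydig cells, with sums of 4.66 to 9.64 and 4.04 to 5.6, Star fell as given above. The sums add linear values, so 1 bright gene can make up most of a sum. On the control arrays Serpina1a alone gave 2990 to 4740 of the hepatocyte sum. Kdr gave 80.3 to 170 of the endothelial and Dcn 23.2 to 42.0 of the stellate cell sum there. S100a8 gave 126 of the lymphocyte and neutrophil sum of 153 on NaPB replicate 2. The part of other cell types in the differences of the enzyme genes was not tested.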

How the data were processed

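Liver RNA on 8 one-colour Agilent arrays was compared, 4 per diet. The authors deposited linear spot intensities, scaled so that the 75th percentile of each array was 0.952 to 0.974. Per the submitters' processing notes, scans were read with Agilent Feature Extraction 10.7. NaPB replicate 2 held 3443 distinct values, against 62756 to 62839 on the other arrays, and the reason was not tested. The sources used here do not give background correction, flags, the scaling rule or the genome build; on dim features the first of these can change a fold. Gene symbols came from the platform annotation and were brought up to date through RefSeq's GRCm38.p6 gene table (of 62976 features, 31465 carried 1 symbol and 31511 none; 3282 symbols changed, 5 were not found).

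Intensities entered as log2, without pseudocount, rescaling or filter. The feature with the highest mean stood for a gene, and each feature was also fitted singly. limma 3.58.1 (R 4.3.3, empirical Bayes, diet as the only term) gave two-sided p-values with Benjamini-Hochberg adjustment over all genes or features, called under 0.05. Precision is limited by the number of arrays. Alternatives changed scaling, features, filter, pseudocount, variance model, array weights, block, threshold and arrays.

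The members and gene lists were chosen with earlier results of these data known. Genes named are the 8 members, the called genes and the gene with the smallest p of each list, the 6 profiles nearest to Hsd3b5, and Cyp2b10; others are said to be picked after their values were seen or are named as neighbours or by small counts. Python 3.11.15 was used for tables.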

Additional observations from a re-analysis of the deposited data

Results flagged for a closer look

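Within groups of 4 arrays, 1 value stood far from the other 3 in 4 of 38 groups examined (both diets for 19 features). Chance marks about 1 in 20 of independent groups. These are not independent, since 10 of the features are of Hsd11b1 and all share the same arrays, so the count cannot be set against that rate. Hsd3b5 was 22.6 on control replicate 1, above the other control arrays. Feature 3 of Hsd3b2 was 4.25 on the same array. Srd5a1 was 0.943 on NaPB replicate 4, below the other NaPB arrays, and the ninth feature of Hsd11b1 was 8.72 on that array.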

How the results depend on the processing

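Over all genes 209 were called; the count was 328 with quantile normalization, 111 with arrays set to the same median, 812 with array weights, 364 at a threshold of 0.1, 570 without control replicate 1 and NaPB replicate 4, and 88 to 365 with 1 array left out at a time. No member other than Hsd3b5 was called, except Hsd3b2 with every feature fitted singly (1) and with the mean of all features (1); the count was 0 whichever single array was left out. Of the steroid list genes 9 were called, 15 with array weights, 16 without both of those arrays and 6 to 14 with 1 left out. Feature 2 of Hsd3b2 passed under 6 of 17 alternatives (adjusted p 0.0177 to 0.0444). With the replicate block 135 genes were called and Hsd17b6 was lost (limma, adjusted p = 0.0930). In deviations from the diet mean, same-numbered arrays correlated at 0.230, −0.286, 0.0380 and 0.231, and differently numbered arrays at −0.351 to 0.374. These values do not settle whether the numbers pair samples. The cause of these changes was not tested. Values near an array's floor, as for Hsd3b1 and Hsd3b5 on NaPB arrays, limit how well a fold is known.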
